A study of Mus musculus with 12 samples.

Results

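The genes described here encode 9 enzymes of the squalene to cholesterol branch of sterol synthesis, in the order of the pathway Sqle, Lss, Cyp51, Tm7sf2, Nsdhl, Hsd17b7, Ebp, Sc5d and Dhcr7. They were chosen by the reactions their products carry out, with earlier results of these data known. Each of the 9 was found among the 21671 genes of the expression table. All 9 also passed the filter on low values, as did 9744 of the 21671 genes.

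RNA-seq was performed on FL5.12 cells, a mouse cell line of BALB/c origin that grows with interleukin 3 and is labelled prolymphocytic. The cells carried MycER, a fusion of MYC to a modified estrogen receptor that becomes active when 4-hydroxytamoxifen (OHT) is added; it was expressed constitutively from a retroviral vector in a drug-selected pool. There were 4 conditions with 3 libraries each, and every one of the 12 libraries came from MycER-expressing cells. The study states that cells were passaged in medium with reduced glucose before experiments with IACS-010759. The untreated group received neither agent, and whether it received their solvents (ethanol for OHT and DMSO for IACS-010759) is not given in the sources used here; the OHT group had 100 nM OHT for 48 h of priming and 24 h of further culture (72 h in all). The IACS group was not primed and had 135 nM IACS-010759, an inhibitor of respiratory complex I, for 24 h, and the OHT_IACS group was primed with 100 nM OHT for 48 h and then had 135 nM IACS-010759 for 24 h. The labels do not say plainly whether OHT stayed in the medium during those last 24 h; if it did not, IACS and the removal of OHT cannot be told apart in OHT_IACS against OHT or in the interaction. No cells without MycER were among these libraries, so that effects of OHT itself and of MycER activation cannot be told apart.

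Cholesterol is made from acetyl-CoA through mevalonate and squalene, and the enzymes after squalene close the rings and then trim and rearrange the sterol skeleton in the endoplasmic reticulum. Several of these steps use molecular oxygen, and among the genes described here Sqle, Cyp51 and Sc5d encode enzymes of such steps. The transcription of most genes of the pathway is known to be driven by SREBP2, which is held back by INSIG proteins when sterols are plentiful and which acts together with NF-Y and Sp1 at many promoters.

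Because several of the 9 genes moved together across the conditions, their promoters were searched for the short sequences these factors are known to bind. RefSeq promoter windows (GRCm38.p6, 250 bases before to 50 bases after the start) were matched by symbol for 8 of the 9 genes, all but Sqle, with 10 windows in total since Dhcr7 had 3. On either strand, CCAAT (the NF-Y motif) was found in 8 of the 10 windows and in at least 1 window of all 8 genes, compared with 37.4% of all 32851 windows and 38.3% of the 9309 windows of genes tested. GGGCGG (Sp1) was found in 9 of the 10 windows, with at least 1 for all 8 genes, compared with 35.7% of all windows and 64.5% of those of genes tested. CACGTG, the E-box bound by MYC among other factors, was in 3 of the 10 windows, 1 each of Hsd17b7, Sc5d and Dhcr7, compared with 7.15% of all windows and 10.5% of those of genes tested. TCACNCCAC, a core of SREBP elements, was in none of the 10 windows and in 1.24% of all windows; this says only that these letters were not in these 300 bases. The stretches that follow are shown for the 4 genes with the lowest fitted values under IACS that had a window (Lss, Cyp51, Nsdhl and Dhcr7) and for the 2 genes that were lower, not higher, in all OHT libraries (Hsd17b7 and Ebp). Each lies upstream of the start, on the strand of the gene and 5′ to 3′, around the CCAAT match closest to the start, and capitals mark CCAAT, its complement ATTGG, and GGGCGG.
Lss: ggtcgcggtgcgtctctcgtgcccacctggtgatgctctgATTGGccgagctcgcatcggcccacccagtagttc
Cyp51: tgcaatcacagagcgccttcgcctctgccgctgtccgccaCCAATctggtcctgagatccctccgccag
Nsdhl: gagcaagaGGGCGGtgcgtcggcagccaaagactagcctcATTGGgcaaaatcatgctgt
Dhcr7: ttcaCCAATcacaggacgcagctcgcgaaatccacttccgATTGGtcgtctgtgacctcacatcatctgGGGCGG
Hsd17b7: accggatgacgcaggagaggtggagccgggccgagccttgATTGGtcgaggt
Ebp: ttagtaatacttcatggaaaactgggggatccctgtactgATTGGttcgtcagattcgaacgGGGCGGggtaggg
The stretches lie at chr10:76531503-76531577 (plus strand) for Lss, chr5:4104698-4104766 (minus strand) for Cyp51 and chrX:72918461-72918520 (plus strand) for Nsdhl. Those of the other 3 genes lie at chr7:143830125-143830199 (plus strand) for Dhcr7, chr1:169969206-169969257 (minus strand) for Hsd17b7 and chrX:8193533-8193607 (minus strand) for Ebp. The match closest to the start began 62 bases before it in Lss, 29 in Cyp51, 20 in Nsdhl, 49 in Dhcr7, 12 in Hsd17b7 and 55 in Ebp. CCAAT was thus present both in genes that were higher and in genes that were lower with OHT, and no match overlapped another in these stretches.

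The deposited unit was RPKM, the reads on a gene relative to its length and to the total of its library. Levels are given as RPKM after division by 1 factor per library, the median over genes of the ratio to their geometric mean. Whole reads could be worked out from the steps between RPKM values, and the library totals were 13375674, 14550158 and 14281395 in untreated cells and 10376530, 13956222 and 10770476 with OHT. The totals were 13076509, 13729131 and 11133789 with IACS, and 11913079, 11804978 and 11792608 in the OHT_IACS group. OHT libraries 1 and 3 therefore had the smallest totals. The reads behind single values ran from 38 to 70 per library for Tm7sf2, the gene with the fewest, from 710 to 1368 for Sqle and from 607 to 1512 for Cyp51.

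The labels were checked on marker genes. Of 9 markers of B-lineage precursors, 4 (Vpreb2, Pax5, Rag1 and Il7r) were listed at 0 in all 12 libraries, and the list summed to between 2.11 and 4.93 RPKM, led on average by Cd79b. A listed 0 means that no reads were counted for a gene, which may not mean that its RNA was absent. These values therefore do not settle the label, and the cells are called by the name of the line here. The 3 genes of the interleukin-3 receptor summed to between 69.1 and 82.3 RPKM, led by Csf2rb. The 6 myeloid markers summed to 23.8 to 35.3 RPKM, led by the transcription factor gene Spi1; T-cell markers did not exceed a sum of 0.0486 RPKM, nor hepatocyte markers a sum of 0.142.

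Some of these markers moved with the conditions. Klf1, an erythroid transcription factor gene that made up nearly all of the erythroid sum, averaged 13.4 RPKM in untreated cells, 9.47 with OHT, 6.88 with IACS and 5.07 with both. The sum of the myeloid markers averaged 33.6, 26.2, 32.4 and 26.3 RPKM in the same order, and that of the B-lineage markers 4.18, 2.69, 4.45 and 2.39. The part of such shifts in the results on the sterol genes was not tested, and in these bulk samples fewer cells of a kind and less RNA per cell cannot be told apart.

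The labels of the treatments were checked as well. Under IACS, reads of Ddit3, which encodes the stress factor CHOP, were at 17.2, 16.4 and 17.3 RPKM, beside 7.58, 7.67 and 7.24 in untreated cells, with no overlap; with OHT alone it was at 8.18, 9.98 and 8.23 and was also called higher (0.22). Ncl, which encodes nucleolin and is known as a MYC target, was at 37.3, 33.8 and 38.1 RPKM with OHT, beside 30.0, 29.0 and 29.0 in untreated cells. Odc1, also known as a MYC target, was called higher with OHT at 0.23, but its OHT libraries (84.6, 66.7 and 80.7 RPKM) overlapped the untreated ones (68.2, 63.2 and 65.2). Cad, another such target, overlapped and did not pass (0.14; limma, Benjamini-Hochberg adjusted p = 0.30). Myc itself was lower with OHT, at 19.8, 22.0 and 20.7 RPKM beside 36.3, 36.3 and 37.2 in untreated cells; whether reads of the MycER construct were counted on Myc is not given in the sources used here.

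Sqle encodes squalene epoxidase, which adds oxygen to squalene and is held to be a rate-limiting enzyme of the branch. Its level was 30.4, 30.6 and 31.7 RPKM in untreated libraries, 38.3, 34.9 and 35.6 with OHT, 25.7, 24.4 and 23.7 with IACS, and 29.6, 30.2 and 29.2 with both. The order of the conditions was IACS, OHT_IACS, untreated and OHT from lowest to highest, and no neighbouring pair in this order overlapped. Lss, for lanosterol synthase, which closes the sterol rings, was at 11.7, 11.7 and 11.5 RPKM in untreated libraries, 14.7, 16.3 and 16.4 with OHT, 7.68, 7.64 and 7.17 with IACS, and 11.5, 10.6 and 10.5 with both. Lss followed the same order as Sqle, again with no overlap between neighbours, although its highest OHT_IACS library came close to the lowest untreated one.

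Cyp51 encodes the cytochrome P450 that removes a methyl group from lanosterol. It stood at 20.9, 20.7 and 20.1 RPKM in untreated libraries, 26.7, 24.4 and 26.0 with OHT, 14.3, 13.8 and 12.8 with IACS, and 18.2, 17.0 and 17.5 with both, so that each condition occupied a range of its own. Tm7sf2 encodes a sterol reductase that acts on the product of Cyp51, a reaction shared with the protein of Lbr. Its level was low, at 1.68, 1.83 and 1.71 RPKM in untreated libraries, 1.41, 1.76 and 1.36 with OHT, 1.23, 1.76 and 1.37 with IACS, and 1.35, 1.65 and 1.73 with both. All neighbouring conditions overlapped for Tm7sf2. Lbr, by comparison, averaged 50.1 ± 0.681 RPKM in untreated cells (SD, n = 3).

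Nsdhl and Hsd17b7 encode a dehydrogenase and a ketosteroid reductase that act in removing the methyl groups at the other end of the molecule. Nsdhl was at 12.7, 12.1 and 12.3 RPKM in untreated libraries, 14, 12.3 and 13.1 with OHT, 8.0, 7.99 and 7.69 with IACS, and 10, 9.53 and 8.58 with both. Untreated and OHT libraries overlapped for Nsdhl, while the conditions with IACS were apart from these and from each other. Hsd17b7 showed another order: it was highest in untreated libraries, at 5.11, 5.07 and 5.08 RPKM, followed by 3.99, 4.63 and 3.95 with OHT, 3.74, 3.86 and 3.93 with IACS, and 3.47, 3.39 and 3.34 with both. The OHT and IACS libraries of Hsd17b7 were close to touching, at 3.95 and 3.93 RPKM.

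Ebp, Sc5d and Dhcr7 act last, as an isomerase that moves a double bond, an oxygen-using desaturase, and the reductase that yields cholesterol from its immediate precursor. Ebp was at 16.1, 15.1 and 15.6 RPKM in untreated libraries, 14.6, 14.2 and 13.3 with OHT, 14.9, 15 and 12.5 with IACS, and 10.6, 12.1 and 11.6 with both. Ebp lay below the untreated range with each agent alone, but IACS came close to it, at 15 beside 15.1 RPKM. Neither of these differences passed, as given below. The OHT and IACS libraries of Ebp overlapped each other, and those with both agents were the lowest. Sc5d was at 15, 15.8 and 16.4 RPKM in untreated libraries, 17.2, 17.6 and 17.1 with OHT, 13.2, 11.7 and 11.4 with IACS, and 13, 13.7 and 13.5 with both. Dhcr7 was at 7.52, 7.74 and 7.27 RPKM in untreated libraries, 8.4, 9.64 and 9.12 with OHT, 4.68, 3.49 and 4.23 with IACS, and 5.13, 5.94 and 6.76 with both. Both genes had the order of Sqle, with the conditions apart for Dhcr7 and an overlap between IACS and OHT_IACS for Sc5d.

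**Figure D1:**
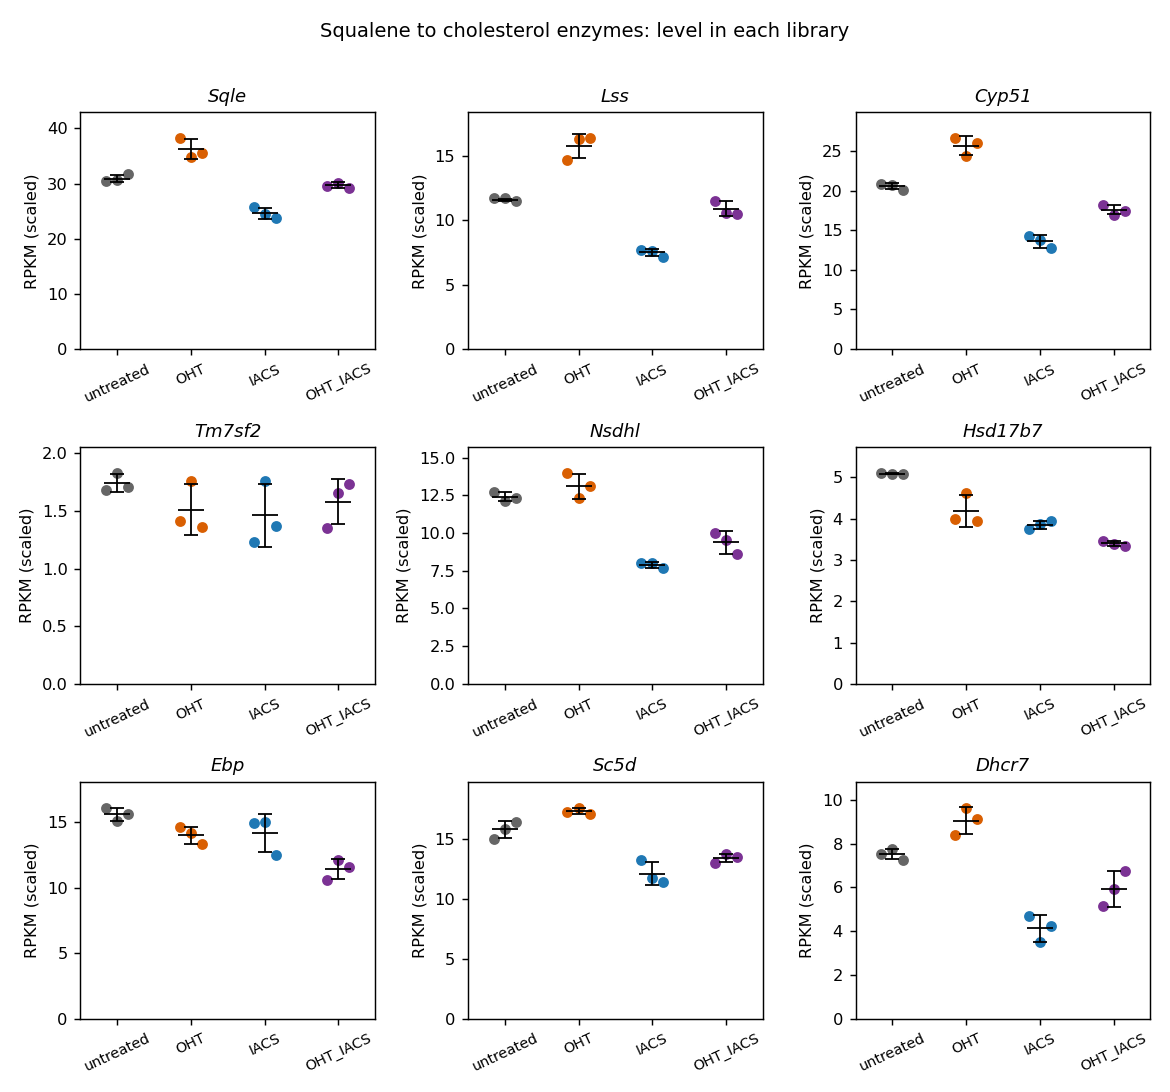
Level of each of the 9 genes in every library (points; vertical axis, RPKM after scaling, from 0) in the 4 conditions, with the mean and SD of 3 libraries in black. Sqle, Lss, Cyp51 and Dhcr7 show 4 separate levels with OHT highest and IACS lowest, Hsd17b7 is highest in untreated cells, and the conditions overlap for Tm7sf2.

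The first question was what complex I inhibition did to these genes in cells that were not primed. With IACS, 7 of the 9 genes fell at an adjusted p under 0.05, and the fitted values of all 9 lay below 0, while 7.73% of all genes tested were called lower and 8.14% higher. The median log2 fold change was -0.40 over the 9 genes and 0.00 over all genes tested. Dhcr7 had the lowest value, with a log2 fold change of -0.86 ± 0.11 (SE) that corresponds to 0.553 of the untreated level (limma, Benjamini-Hochberg adjusted p = 0.00019, two-sided as all tests here). Nsdhl came next at -0.64 ± 0.06 (limma, Benjamini-Hochberg adjusted p = 2e-05) and Lss at -0.63 ± 0.06 (limma, Benjamini-Hochberg adjusted p = 9.4e-06). Cyp51 fell to 0.664 of its untreated level and Sqle, the gene with the highest RPKM of the 9, to 0.797.

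Sc5d and Hsd17b7 completed the 7 genes, with log2 fold changes of -0.38 and -0.40. The 2 genes that did not pass were Ebp, at -0.15 with a 95% interval from -0.30 to 0.01 (limma, Benjamini-Hochberg adjusted p = 0.19), and Tm7sf2, at -0.26 with an interval from -0.58 to 0.07 (limma, Benjamini-Hochberg adjusted p = 0.28). Without overlap between the libraries, 8 of the 9 genes were lower with IACS, all but Tm7sf2, compared with 18.7% of all genes tested. The calls on the 7 genes held under every alternative fitted.

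In OHT-primed cells, where the comparison of OHT_IACS with OHT shares no library with the one above, 8 of the 9 genes fell; of all genes tested, 11.8% were called lower and 11.9% higher. The median log2 fold change of the 9 genes was -0.37 (-0.01 over all genes tested). Dhcr7 again had the lowest value, -0.61 ± 0.11 (SE; limma, Benjamini-Hochberg adjusted p = 0.0016), followed by Cyp51 at -0.54 ± 0.05 (limma, Benjamini-Hochberg adjusted p = 1.2e-05) and Lss at -0.54 ± 0.06 (limma, Benjamini-Hochberg adjusted p = 2.6e-05). Ebp fell by 0.29 on the log2 scale (limma, Benjamini-Hochberg adjusted p = 0.011), as did Hsd17b7, also with an adjusted p of 0.011 from limma with Benjamini-Hochberg adjustment. Tm7sf2 was at 0.06 with a 95% interval from -0.27 to 0.39, and its libraries overlapped.

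The other 8 genes were lower in all OHT_IACS libraries than in any OHT library, compared with 19.2% of all genes tested. Ebp and Hsd17b7 were the less firm calls. For Hsd17b7 the adjusted p from limma with Benjamini-Hochberg adjustment was 0.057 when only the 2 groups compared were fitted, in a range of 0.0013 to 0.057 over its alternatives, and its log2 fold change was -0.44 without OHT libraries 1 and 3. For Ebp it was 0.094 without those 2 libraries (limma, Benjamini-Hochberg), in a range of 0.0026 to 0.094.

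**Figure D2:**
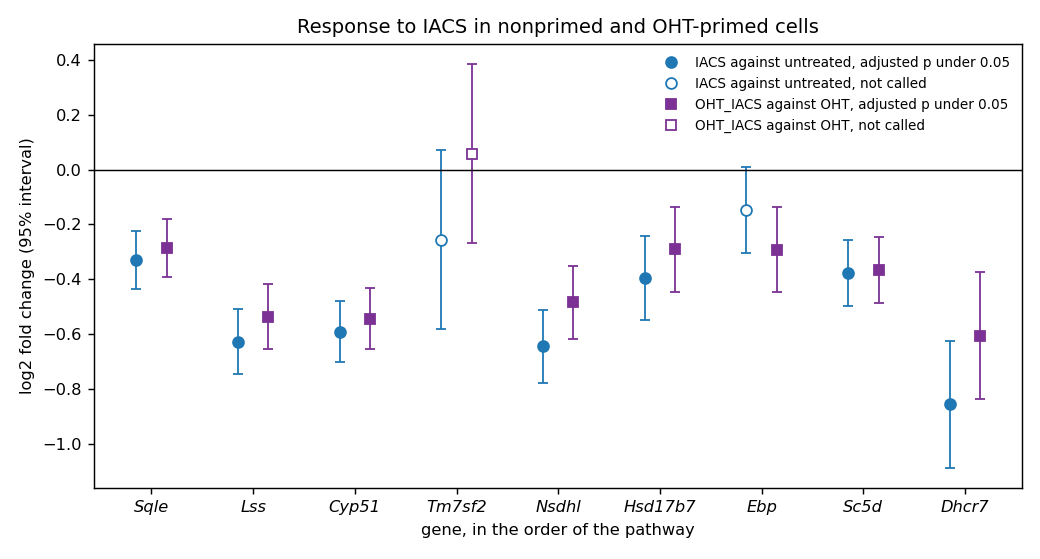
Log2 fold change with its 95% interval (vertical axis) of each gene, in pathway order, for IACS against untreated (circles) and OHT_IACS against OHT (squares); filled symbols are called at an adjusted p under 0.05. The values lie below 0 for 9 genes in nonprimed cells and for 8 in primed cells, from -0.86 for Dhcr7 to 0.06 for Tm7sf2.

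Whether priming altered the response to IACS was tested as an interaction, the response in primed cells minus that in nonprimed cells. None of the 9 genes passed with limma, none had an unadjusted p under 0.05 (1237 of the 9744 genes did), and none was called with limma voom on the recovered reads. Of all genes tested, 14 were called with limma, or 0.144%, and 25 with voom. The interaction was positive for 8 of the 9 genes and negative for Ebp, with a median of 0.09 (-0.02 over all genes tested). Its 95% intervals leave room for differences of some size: Sqle was at 0.04 with an interval from -0.11 to 0.19, Dhcr7 at 0.25 from -0.08 to 0.58, Nsdhl at 0.16 from -0.03 to 0.35, and Ebp at -0.14 from -0.36 to 0.08. The widest interval of the 9 was that of Tm7sf2, at 0.313 from -0.148 to 0.775. A difference between primed and nonprimed cells was thus not detected at this depth, and similar responses are not shown by it.

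OHT alone was compared with untreated cells next. Sqle, Lss and Cyp51 rose and Hsd17b7 fell, which makes 3 of 9 genes called higher and 1 called lower. Of all genes tested, 18.1% were called higher and 18.2% lower. The median log2 fold change of the 9 genes was 0.13, beside 0.01 over all genes tested. Lss had the highest value, 0.44 ± 0.06 (SE) or 1.35 times the untreated level (limma, Benjamini-Hochberg adjusted p = 4.9e-05). Cyp51 rose by 0.32 ± 0.05 (limma, Benjamini-Hochberg adjusted p = 0.00039) and Sqle by 0.23 ± 0.05 (limma, Benjamini-Hochberg adjusted p = 0.0027). Hsd17b7 was at -0.28 ± 0.07 (limma, Benjamini-Hochberg adjusted p = 0.0086), or 0.825 of its untreated level. This comparison shares the untreated libraries with that of IACS against untreated.

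The remaining genes did not pass in this comparison. Dhcr7 was at 0.27 (limma, Benjamini-Hochberg adjusted p = 0.070) and Sc5d at 0.13 (limma, Benjamini-Hochberg adjusted p = 0.078), each higher in all 3 OHT libraries, whereas Ebp was at -0.16 (limma, Benjamini-Hochberg adjusted p = 0.10) and lower in all 3. Nsdhl was at 0.08 with a 95% interval from -0.05 to 0.22, and Tm7sf2 at -0.20 from -0.52 to 0.13. Counted without overlap of libraries, 5 of the 9 genes were higher with OHT (22.5% of all genes tested) and 2 were lower (23.5% of all genes tested).

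The OHT libraries differed in depth, as given above. Within conditions, the log2 reads of genes covered by under 0.1 reads per base changed with the log2 library total by a median slope of 1.38, those of genes with 0.3 to 0.5 reads per base by 0.91, and those of genes above 1 read per base by 0.18. Reads of abundant genes thus leveled off: Actb had 2634 to 2813 reads per library while the totals ran from 10376530 to 14550158. The RPKM printed for such a gene is lower where the total is larger. Hsd17b7 (0.0526 reads per base), Tm7sf2 (0.02) and Dhcr7 (0.0839) belong to the first class and Sqle (0.381) to the second; the part of depth in the calls was not tested, and the values under other fits follow. When the library total (log2) entered the fit as a covariate, Hsd17b7 was at -0.19 and no longer called (limma, Benjamini-Hochberg adjusted p = 0.11), Sqle was at 0.21 and still called (limma, Benjamini-Hochberg adjusted p = 0.018), and Tm7sf2 was at 0.01. Without OHT libraries 1 and 3, an alternative chosen after seeing the totals, Hsd17b7 was at -0.13 with a limma adjusted p (Benjamini-Hochberg) of 0.31 and Sqle at 0.18 with one of 0.053, while Lss and Cyp51 were still called; over the alternatives the range was 0.0013 to 0.31 for Hsd17b7 and 0.00087 to 0.053 for Sqle.

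In the OHT comparison 3 further genes passed in some alternatives, among them those that left out single libraries of other conditions, which share the estimate of the spread. With limma and Benjamini-Hochberg adjustment, Dhcr7 passed without IACS replicate 2 (adjusted p = 0.037) or without OHT_IACS replicate 1 (adjusted p = 0.049), in a range of 0.012 to 0.18 over its alternatives; it also passed with only the groups compared, with quantile normalization and with voom. Sc5d passed without IACS replicate 1 (limma, Benjamini-Hochberg adjusted p = 0.042; range 0.042 to 0.24), and Ebp without IACS replicate 3 (limma, Benjamini-Hochberg adjusted p = 0.039; range 0.039 to 0.55) or with only the groups compared. The calls on Lss and Cyp51 held in all alternatives fitted.

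OHT was also compared in the presence of the inhibitor, as OHT_IACS against IACS. Here Sqle, Lss, Cyp51, Nsdhl and Dhcr7 rose and Ebp fell, so that 5 of 9 genes were called higher and 1 lower, beside 12.3% and 14.2% of all genes tested. The median log2 fold change of the 9 genes was 0.24, beside -0.00 over all genes tested. Lss was at 0.53 ± 0.06 (SE; limma, Benjamini-Hochberg adjusted p = 1.6e-05), Dhcr7 at 0.51 ± 0.11 (limma, Benjamini-Hochberg adjusted p = 0.0032) and Ebp at -0.30 ± 0.07 (limma, Benjamini-Hochberg adjusted p = 0.0075). Cyp51 was 1.29 times, Sqle 1.21 times and Nsdhl 1.18 times as high as with IACS alone.

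Hsd17b7 was lower in all 3 OHT_IACS libraries at -0.17 but did not pass (limma, Benjamini-Hochberg adjusted p = 0.093), and Sc5d was at 0.15 with overlapping libraries (limma, Benjamini-Hochberg adjusted p = 0.072). In all, 5 of the 9 genes were higher in every OHT_IACS library, compared with 20.1% of all genes tested, and 2 were lower (22.2%). Nsdhl lost its call without OHT_IACS replicate 1 (limma, Benjamini-Hochberg adjusted p = 0.051; range 0.0035 to 0.051). Hsd17b7 gained one without OHT replicate 2 (limma, Benjamini-Hochberg adjusted p = 0.043, range 0.043 to 0.20). Sc5d gained one without IACS replicate 1 (limma, Benjamini-Hochberg adjusted p = 0.014, range 0.014 to 0.22). Sc5d was also called with the library total as a covariate, at a log2 fold change of 0.16. The comparison shares its IACS libraries with that of IACS against untreated and its OHT_IACS libraries with that of OHT_IACS against OHT.

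**Figure D3:**
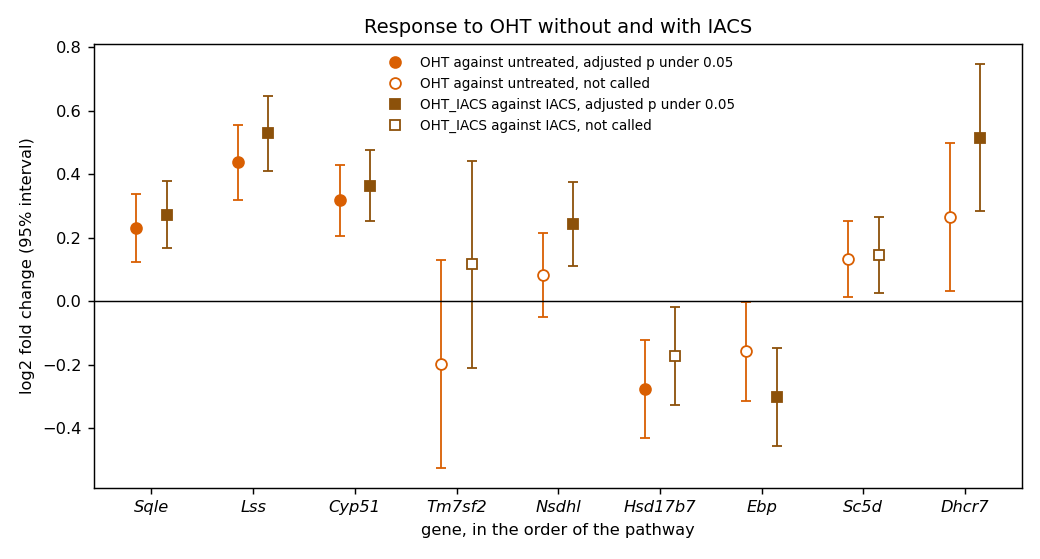
Log2 fold change with its 95% interval (vertical axis) of each gene, in pathway order, for OHT against untreated (circles) and OHT_IACS against IACS (squares); filled symbols are called at an adjusted p under 0.05. Lss is the highest in both, at 0.44 and 0.53, while Hsd17b7 and Ebp lie below 0 in both.

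Cells that received both agents were also set beside untreated cells, as a description without a test. In 8 of the 9 genes, all but Tm7sf2, every OHT_IACS library was lower than every untreated library, as was the case for 28.5% of all genes tested. The ratio of the means was 0.961 for Sqle and 0.934 for Lss, 0.854 for Cyp51 and 0.850 for Sc5d. It was 0.791 for Dhcr7, 0.757 for Nsdhl, 0.731 for Ebp and 0.668 for Hsd17b7. Tm7sf2, whose libraries overlapped, had a ratio of 0.907. Every OHT_IACS library also had a smaller total than every untreated library, and the part of depth in these ratios was not tested.

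Genes that act beside the 9 were examined next. Msmo1, for the oxygenase that starts removal of a pair of methyl groups, fell with IACS in nonprimed cells (log2 fold change -0.40) and in primed cells (-0.27), and rose with OHT (0.24). Of 3 other post-squalene genes, 1 was called lower in nonprimed cells and 2 in primed cells, beside 7.73% and 11.8% of all genes tested. Lbr passed in neither, at 0.02 and -0.14, and 0610007P14Rik, also named Erg28, which encodes a scaffold of the enzymes, was called lower only in primed cells, at -0.27 beside -0.04 in nonprimed cells; its interaction did not pass (limma, Benjamini-Hochberg adjusted p = 0.31).

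The proteins that pass electrons to these oxygen-using enzymes were followed through 5 genes. With IACS in nonprimed cells their log2 fold changes ran from -0.15 for Cyb5b to 0.16 for Cyb5a, and neither passed (limma, Benjamini-Hochberg adjusted p = 0.079 and 0.092). In primed cells Cyb5a, a cytochrome b5 gene, was called higher at 0.19. Por, the reductase that supplies cytochromes P450 such as that of Cyp51, was at 37.2, 35.2 and 37.3 RPKM in untreated libraries and at 27.0, 28.4 and 28.5 with OHT. Por fell with OHT by 0.39 on the log2 scale (limma, Benjamini-Hochberg adjusted p = 1e-04) and Cyb5r3 by 0.26 (limma, Benjamini-Hochberg adjusted p = 0.0012). Cyp51 and Por thus moved in opposite directions with OHT.

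Upstream, 7 of 8 genes for enzymes from acetyl-CoA to squalene passed the filter. The exception was Hmgcs1, which was listed at 0 in 10 of 12 libraries. It was at 0.0166 and 0.00829 RPKM in untreated replicate 3 and OHT replicate 2. Since most cells use this gene, the lack of counted reads may not mean that its RNA was absent, and the cause was not tested. With IACS, these 7 genes all fell in nonprimed cells, with a median of -0.55 and a range from -0.78 for Pmvk to -0.34 for Fdps. All 7 also fell in primed cells, with a median of -0.44. The 7 were called lower in both comparisons, beside 7.73% of all genes tested in nonprimed cells and 11.8% in primed cells. With OHT, Mvk and Fdps rose and Mvd fell, at 0.67, 0.26 and -0.41; that is 2 of 7 higher and 1 lower, beside 18.1% and 18.2% of all genes tested. Fdps was at 75.3 and 71.2 RPKM in OHT libraries 1 and 3, those with the smallest totals, and at 60.1 in OHT library 2, beside 58.5, 55.7 and 57.1 in untreated cells; the part of depth in its call was not tested.

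**Figure D4:**
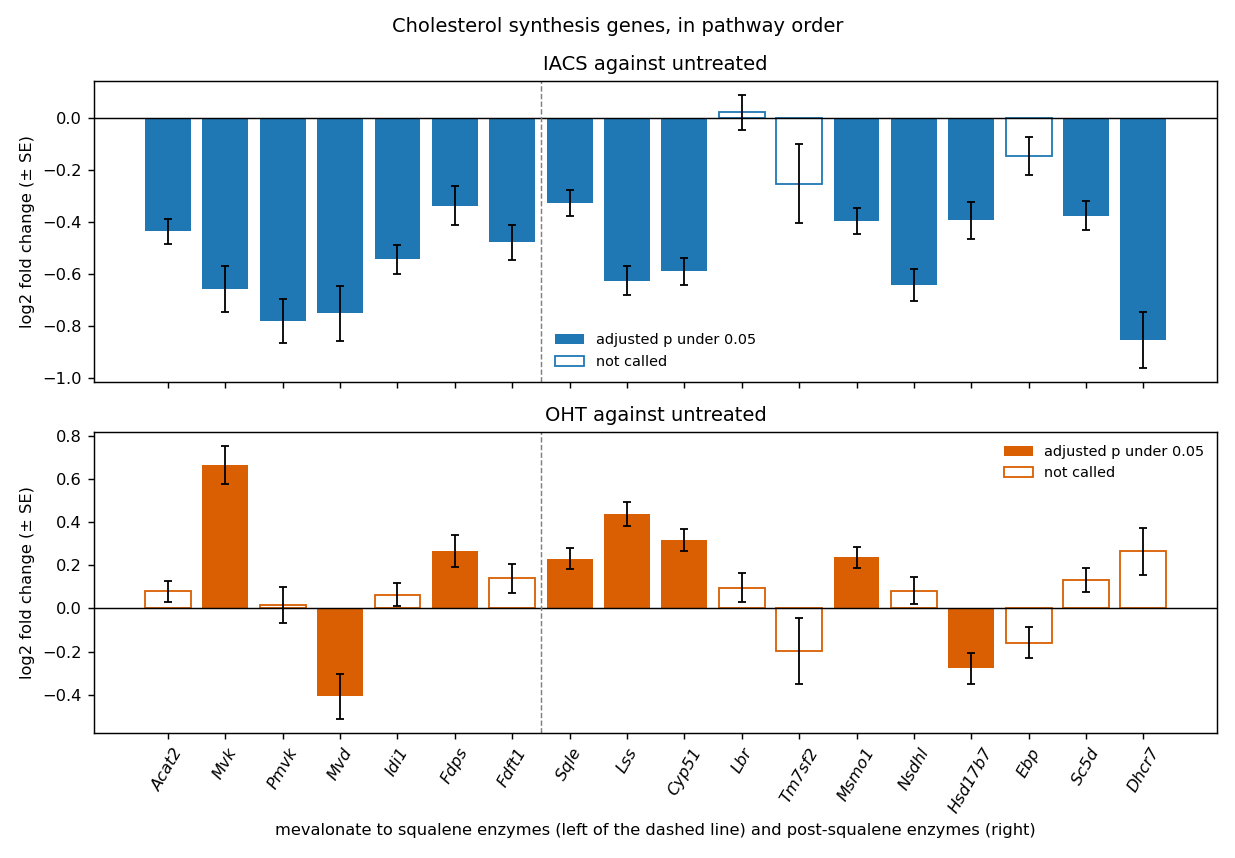
Log2 fold change ± SE (bars from 0) for 18 genes of cholesterol synthesis in pathway order, with IACS against untreated above and OHT against untreated below; the dashed line separates the 7 enzymes up to squalene from those after it, and open bars are not called. With IACS, 15 of the 18 genes are called lower, beside 7.73% of all genes tested. With OHT, calls go in both directions, beside 18.1% of all genes tested called higher and 18.2% called lower.

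Regulators of the pathway were measured in the same libraries. Insig1, whose product retains SREBP in the endoplasmic reticulum and which is itself an SREBP target, was at 24.4, 24.4 and 23.7 RPKM in untreated libraries, 26.1, 25.9 and 26.8 with OHT, 13.5, 13.5 and 12.3 with IACS, and 15.1, 15.3 and 15.2 with both. Its log2 fold change was -0.88 in nonprimed cells (limma, Benjamini-Hochberg adjusted p = 7.9e-08) and -0.79 in primed cells (limma, Benjamini-Hochberg adjusted p = 1.4e-07). Of 7 regulators, 3 were called lower in nonprimed cells (Srebf1, Srebf2 and Insig1; 7.73% of all genes tested) and 3 in primed cells (Srebf2, Insig1 and Insig2; 11.8%).

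With OHT the SREBP genes went apart: Srebf2 was at 17.2, 18.1 and 17.1 RPKM beside 14.1, 13.2 and 14.1 in untreated libraries, and Srebf1 at 20.2, 21.9 and 20.1 beside 24.3, 25 and 25.8. Srebf2 rose by 0.34 (limma, Benjamini-Hochberg adjusted p = 0.00013) and Srebf1 fell by 0.27 (limma, Benjamini-Hochberg adjusted p = 0.0015). A list of genes for LXR, sterol export and sterol storage was examined last. Of 5 tested (Nr1h2, Abca1, Abcg1, Mylip and Soat1), 1 was called higher with IACS in nonprimed cells and 2 in primed cells (8.14% and 11.9% of all genes tested), and with OHT 1 was called higher and 3 lower (18.1% and 18.2%). Abcg1, for a cholesterol exporter, rose with IACS by 0.45 in nonprimed and by 0.78 in primed cells and fell with OHT by 0.66 on the log2 scale. Soat1, which esterifies cholesterol for storage, rose with OHT by 0.93 and was at 0.07 and -0.04 with IACS in nonprimed and primed cells.

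The pattern over all 12 libraries was summarised by the mean of the standardized log2 levels of the 9 genes. Each gene was set beside the mean of the other 8, and Pearson's r was 0.946 for Sc5d, 0.937 for Nsdhl, 0.899 for Cyp51, 0.892 for Dhcr7, 0.831 for Lss and 0.828 for Sqle. It was 0.588 for Hsd17b7, 0.359 for Ebp and 0.257 for Tm7sf2, the 3 genes with other orders of the conditions. Among all genes outside the 9 that were tested, those with the highest r to the mean of the 9 were Insig1 (0.987), Tatdn2 (0.972), Abhd13 (0.969), Eme1 (0.965), Egln3 (0.964) and Rnft1 (0.964). These values describe the 12 libraries, which fall into 4 conditions and share their treatments, and carry no p.

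These 6 genes were chosen for their likeness to the 9 over the same libraries, so that lower levels with IACS follow from the choice, and their levels are given as a description. Egln3, for a prolyl hydroxylase that uses oxygen, averaged 7.94 RPKM in untreated cells, 9.13 with OHT, 3.10 with IACS and 3.11 with both. Eme1, which encodes a subunit of a DNA endonuclease, averaged 15.7, 15.5, 12.1 and 13.1 RPKM in the same order of conditions. With both agents Egln3 thus stayed near its level with IACS alone, while Insig1, given above, was somewhat higher with both than with IACS.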

How the data were processed

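Total RNA was depleted of ribosomal RNA and sequenced from stranded libraries, 3 in each of 4 conditions as labelled. The authors deposited RPKM per gene and library; per the submitters' processing notes, TopHat2 2.0.8, SAMtools, featureCounts 1.4.5-p1, DESeq2 and the mm9 build were used. The authors' deposited columns of DESeq2 log2 fold changes and adjusted p-values were not used. The members and lists were chosen with earlier results of these data known.

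Of 21671 genes, 6220 were listed at 0 in every library. For the other 15451, whole reads, lengths and library totals (10376530 to 14550158) were worked out from the RPKM steps, to within 0.01 reads; this was tested on simulated data. Between replicates, the chi-square per gene (1 for sampling noise; genes under 0.1 reads per base and with at least 20 reads in the pair) ran from 1.08 to 1.88 over 12 pairs, and every library was counted as a replicate. The study calls the replicates biological; separate cultures are not stated in the sources used here, and p-values measure the spread between these libraries.

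Libraries were scaled by the median ratio to the geometric mean (factors from 0.9735 to 1.0261). Genes that reached 1 RPKM in 3 or more libraries were fitted with limma 3.58.1 (R 4.3.3) on log2(RPKM + 0.1), which understates changes of low genes, in 1 model over the 12 libraries whose moderated variances follow the mean level, with two-sided tests adjusted by Benjamini-Hochberg over all 9744 genes of a comparison and a threshold of 0.05. The fit was tested on simulated data. Alternatives were other pseudocounts, filters and scalings, a replicate block, no trend, fewer groups, the library total as a covariate, limma voom on recovered reads, and each library left out. Genes named were those of the lists and the 6 genes most like the mean of the 9; some genes of the lists are not reported here and are left out of the list counts. Promoters were RefSeq windows (GRCm38.p6); no coordinates of the mm9 build were used. Figures used matplotlib 3.10.9 (Python 3.11.15).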

Additional observations from a re-analysis of the deposited data

Results flagged for a closer look

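Among the genes named here, a difference between primed and nonprimed cells in the response to IACS was called for Il3ra, which encodes the specific chain of the interleukin-3 receptor, with an interaction of 0.68 ± 0.12 (SE; limma, Benjamini-Hochberg adjusted p = 0.045). Il3ra was at 7.57, 6.99 and 8.50 RPKM in untreated libraries, 5.25, 6.59 and 5.80 with OHT, 7.54, 7.5 and 7.76 with IACS, and 9.03, 9.57 and 9.55 with both. It rose with IACS in primed cells by 0.67 and was at -0.01 in nonprimed cells, and it fell with OHT by 0.38 on the log2 scale. The call is close to the threshold: over 23 alternatives the interaction ran from 0.51 to 0.77 and was called in 6 and not in 17 (limma, Benjamini-Hochberg adjusted p from 0.0097 to 0.25).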

How the results depend on the processing

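Over 23 or 24 alternatives for each gene and comparison (22 or 23 for Tm7sf2, which fails the stricter filter), 1016 values for single genes kept their direction and side of the threshold, 11 passed it only in the alternative, 6 passed it only in the reported fit and 15 changed sign. The counts of genes called with IACS stayed at 7 of 9 in nonprimed cells and at 7 or 8 of 9 in primed cells in all alternatives, the count for OHT under IACS, 6, ran from 5 to 7, and the interaction count stayed at 0. With OHT the count of 4 became 6 with only the groups compared, 3 with the library total as a covariate, 5 with quantile normalization or voom, 4 or 5 with single libraries left out, and 2 without OHT libraries 1 and 3, an alternative chosen after seeing the data in which the lone OHT library is assumed to vary like the other groups; the cause was not tested. The median with IACS in nonprimed cells moved from -0.40 to -0.49 when genes had to reach 5 RPKM in 3 or more libraries, where Tm7sf2 is left out and 8 genes remain.

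Signs changed for values that had not passed. With OHT, Tm7sf2 was at 0.007 with the library total as a covariate, and at 0.021 without OHT libraries 1 and 3, where Nsdhl was at -0.005. With IACS in primed cells, Tm7sf2 was at -0.028 with quantile normalization and at -0.161 without OHT libraries 1 and 3, and between -0.009 and 0.170 with single libraries left out. The interaction of Sc5d was -0.017 with RPKM as deposited, -0.024 with the covariate, -0.014 without OHT libraries 1 and 3, and between -0.031 and 0.075 with single libraries left out; that of Hsd17b7 was -0.043 without OHT libraries 1 and 3. The causes were not tested.

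The count of all genes called, 1546 with IACS in nonprimed cells, ran from 951 to 1807 with single libraries left out; with OHT it was 3544, 2348 with the covariate and 1891 without OHT libraries 1 and 3. In primed cells 2308 genes were called, 1518 to 2950 with single libraries left out and 735 without OHT libraries 1 and 3; the interaction count of 14 ran from 3 to 130 with single libraries left out, the highest without OHT replicate 2, and from 5 to 34 in the other alternatives. With RPKM as deposited, 867 genes were higher and 469 lower with IACS (64.9% higher), beside 793 and 753 (51.3%), and 2059 higher and 1487 lower with OHT (58.1%), beside 1768 and 1776 (49.9%). The deviations of same-numbered libraries had correlations from -0.176 to 0.093. This does not settle whether the numbers pair the libraries, which is not given in the sources used here. With a replicate block the counts of the 9 genes called were 4, 7, 8, 6 and 0, and no count changed. These are in the order OHT, IACS, IACS in primed cells, OHT under IACS, and interaction. Tm7sf2 had the fewest reads of the 9 genes, 38 to 70 a library.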
